A study of Homo sapiens with 6 samples.

Results

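The clustered histone genes are the gene copies whose symbols begin with HIST1H, HIST2H, HIST3H or HIST4H. Members were all rows of the count table with such a symbol and the gene type protein coding, 54 of the 31582 genes in the table; 7 further histone rows with other gene types were left out. The cells were MDA-MB-231, an established human breast cancer line that lacks hormone receptors, carrying either an shRNA against CALR (3 libraries, CALR knockdown) or a non-targeting control construct (3 libraries, control). Both groups were grown in the same serum-containing medium and collected before confluence, and polyadenylated RNA was sequenced with a kit that keeps the strand. CALR encodes calreticulin, which binds calcium and helps proteins fold in the endoplasmic reticulum. Whether same-group libraries are separate cultures or infections, and whether the line with the shRNA is 1 clone, is not in the labels, so a p-value here measures the spread between these libraries, which may be technical.

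Histones H2A, H2B, H3 and H4 form the protein core around which DNA is wrapped, and histone H1 binds the linker DNA. Most of their genes lie in clusters and are transcribed in S phase, when new DNA has to be packed. Their mRNAs are unusual in that they end without a poly(A) tail, just after a short stem-loop that is bound by the protein SLBP. Some of these genes are also known to give longer, polyadenylated transcripts, made from a poly(A) signal downstream of the stem-loop. Selection of polyadenylated RNA therefore captures only part of what the genes make, and a value below is a level in selected RNA, not the total amount of a histone mRNA. In a culture measured in bulk, fewer cells in S phase and less RNA per cell cannot be told apart.

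Library totals lay between 34639090 and 42425310 reads. CALR was at 493, 66.4 and 110 CPM (reads scaled to the effective library size) in CALR knockdown replicates 1 to 3, and at 1213, 979 and 926 CPM in control replicates 1 to 3. All 3 knockdown libraries were below all controls, and knockdown replicate 1 kept more CALR than the other two. The log2 fold change was -2.22 ± 0.64 (SE), and edgeR gave an adjusted p of 0.209. All 10 markers fixed for MDA-MB-231 cells passed the low-count filter and summed to between 3853 and 7198 CPM per library. The 10 luminal breast markers all passed too, with sums of 229 to 367 CPM, so passing the filter does not separate these types. Of 8 fibroblast and endothelial markers 5 passed, with sums of 9.60 to 19.5 CPM. The 5 measured blood cell markers summed to between 0.657 and 1.32 CPM per library. The identity markers, among them VIM and CD44, had a median log2 fold change of 0.61 and were positive for 10 of 10, and 4 of them were higher at an unadjusted p under 0.05, where 8.17% of all genes tested were.

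The stem-loop shows which end of a histone mRNA an annotated transcript reaches. In the RNA sequences of GENCODE 29 the 16-base stem-loop was found in 21 of the 54 members, in 9 of the 23 that could be tested, and in 57 of 206694 transcripts of any gene. It is printed here for 5 tested genes, to show a sequence shared between types, with the stem-loop in capitals and 5 bases on either side (RNA sense, 5′ to 3′, T for U).
HIST1H2AC: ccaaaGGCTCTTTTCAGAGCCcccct
HIST2H2BE: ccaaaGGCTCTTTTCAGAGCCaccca
HIST1H3H: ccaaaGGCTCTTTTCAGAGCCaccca
HIST1H4H: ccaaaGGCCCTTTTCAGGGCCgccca
HIST1H4J: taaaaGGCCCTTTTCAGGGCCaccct
The H2A, H2B and H3 genes shown carry the same stem-loop, and both H4 genes share another. The annotated transcripts differ in how far they run on. The HIST2H2BE transcript continues for 1729 bases after the stem-loop, the longest HIST1H2AC transcript for 1128, the HIST1H3H transcript for 769, and the HIST1H4J transcript for 6. HIST1H4H has one transcript that ends 18 bases after the stem-loop and others that end 630 or 1655 bases after it. A gene model without the stem-loop often holds the coding sequence alone: this was so for 21 members, 8 of them tested.

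The promoters of 50 members were present in RefSeq (GRCh38.p14), and short motifs known from histone promoters differed between the types. The window ran from 250 bases before to 50 bases after the start, and both strands were searched. CCAAT, the motif bound by NF-Y, stood in 4 of 4 H1, 15 of 15 H2A, 16 of 16 H2B and 6 of 6 H3 promoters but in 1 of 9 H4 promoters, against 34.6% of all 35116 promoters. The octamer ATTTGCAT, bound by POU2F1, stood in 10 of 15 H2A and 12 of 16 H2B promoters and in no H1, H3 or H4 promoter, against 1.8% of all promoters. TATAA stood in 90.0% of the members and in 20.4% of all promoters. The 200 bases before the start are printed for 3 genes described below, with matches to the 3 motifs in capitals (GRCh38.p14, minus strand, 5′ to 3′). They are HIST1H2BJ at chr6:27132796-27132995, HIST1H2BB at chr6:26043714-26043913 and HIST1H3B at chr6:26032100-26032299.
HIST1H2BJ: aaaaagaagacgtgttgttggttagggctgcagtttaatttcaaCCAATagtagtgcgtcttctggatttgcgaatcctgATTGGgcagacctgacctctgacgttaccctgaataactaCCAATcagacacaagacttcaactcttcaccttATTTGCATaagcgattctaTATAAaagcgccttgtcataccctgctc
HIST1H2BB: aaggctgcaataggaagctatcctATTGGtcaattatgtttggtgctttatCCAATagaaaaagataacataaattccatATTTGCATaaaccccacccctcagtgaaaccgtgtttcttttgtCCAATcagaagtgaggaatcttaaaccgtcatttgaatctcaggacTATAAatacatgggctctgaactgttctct
HIST1H3B: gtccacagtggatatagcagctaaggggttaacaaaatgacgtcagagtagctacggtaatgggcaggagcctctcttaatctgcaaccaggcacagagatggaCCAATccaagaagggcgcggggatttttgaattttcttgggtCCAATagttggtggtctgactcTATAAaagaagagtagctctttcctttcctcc
Both H2B promoters hold the octamer, CCAAT and TATAA, and the HIST1H3B promoter holds CCAAT and TATAA. The octamer begins 47 bases before the start of HIST1H2BJ and 120 bases before that of HIST1H2BB.

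Of the 54 members, 23 had enough reads to be tested, 31 did not, and 17 had at least 10 reads in every library. A further view of the low end is that 24 members had 0 reads in at least 1 library and 17 had fewer than 10 reads over all 6 libraries. A count of 0 allows up to 3 reads, or 0.0688 to 0.0857 CPM in these libraries, which covers counting error only. Of the 16394 genes tested over the whole table, 0 passed an adjusted p of 0.05 in edgeR (percent called: 0), and 2546 had an unadjusted p under 0.05. Accordingly 0 members passed the adjusted threshold in edgeR, and DESeq2 and limma-voom also called 0 of them. By type, 2 of 4 H1 genes, 5 of 16 H2A genes, 9 of 16 H2B genes, 3 of 7 H3 genes and 4 of 11 H4 genes could be tested. The rest of the description is of these 23, which passed on their read counts and are not all members.

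The reads were concentrated in a few genes. HIST1H1C took 33.9% of all reads of the 54 members, HIST1H2BK 22.9%, HIST1H2AC 16.8% and HIST1H2BD 11%, which came to 84.6% for 4 genes. Per length, the mean level in FPKM, which also divides by gene length, was 235 for HIST1H2BK, 203 for HIST1H1C, 49.0 for HIST1H2BD and 39.3 for HIST1H2AC, and below 10 for every other member. No H3 or H4 gene came near these: the highest mean FPKM was 1.72 for HIST1H3H and 7.09 for HIST1H4H. The length behind an FPKM value was 642 bases for HIST1H1C, 381 for HIST1H2BK and 1654 for HIST1H2AC, as far as the ratio of the deposited tables shows it. For HIST1H2BK this is the coding length, although RefSeq gives the gene a span of 8566 bases.

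**Figure D1:**
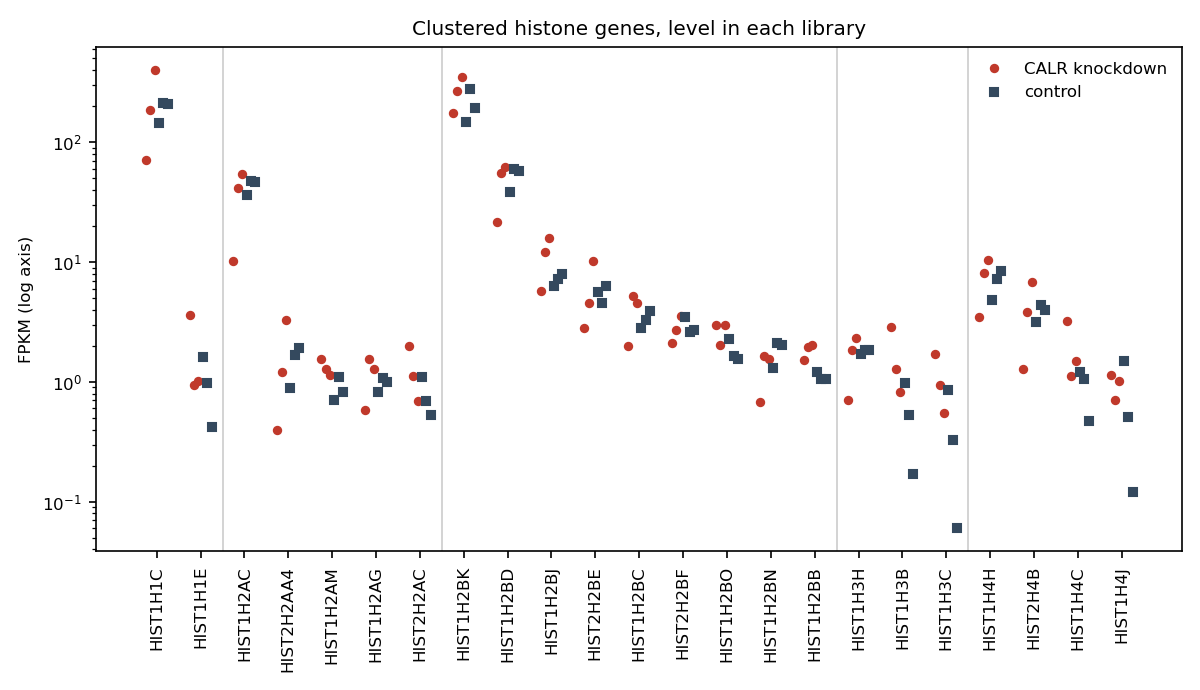
FPKM (log axis) of each tested clustered histone gene, grouped by type from H1 to H4, with red circles for the 3 CALR knockdown (KD) libraries and dark squares for the 3 controls. HIST1H2BK, HIST1H1C, HIST1H2BD and HIST1H2AC stand above all others.

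Of the 23 tested members, 19 had a higher fitted level in CALR knockdown than in control, against 49.9% of all genes tested. Their median log2 fold change was 0.39, and that of all genes tested was -0.00072. Below an unadjusted p of 0.05 stood 2 higher members (HIST1H2BB and HIST1H3B), or 2 of 23 against a background of 8.17%, and 0 lower ones against 7.36%. The groups did not overlap, with knockdown higher, for 2 members (HIST1H2BB and HIST1H2AM) against 11.3% of all genes, and with knockdown lower for 0 against 11.2%. Both counts of higher members are near the background. Without control replicate 3, 0 members were below an unadjusted p of 0.05 in edgeR, and without knockdown replicate 1 or 2 there were 5. The fit without knockdown replicate 2 tested 24 members, and HIST1H4B, which is not among the 23, was 1 of its 5. In that fit 2604 genes of the whole table passed the adjusted threshold, against 0 in the main fit. The share of all genes below the unadjusted p in these fits is not given here. Leaving out CALR knockdown replicate 3 reduced the positive members to 13 of 23 and the median to 0.18, and leaving out knockdown replicate 1 raised them to 22 of 23.

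**Figure D2:**
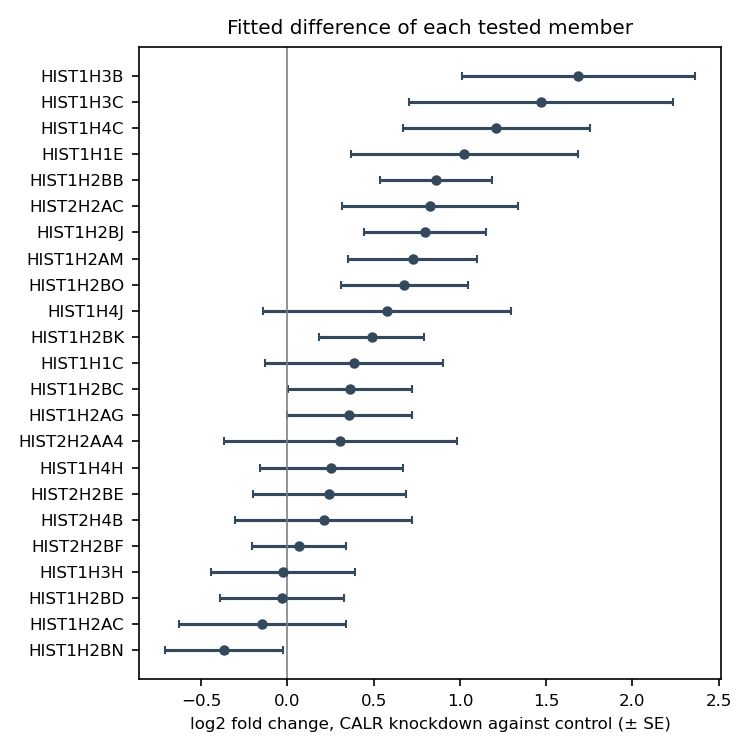
Log2 fold change of CALR knockdown against control (points) with its standard error (bars) for each tested member, ordered by size. HIST1H3B is highest at 1.69 and HIST1H2BN lowest at -0.37.

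Linker histone H1 was nearly all HIST1H1C, the most abundant member by reads (chr6:26055787-26056428, minus strand). It was at 51.4, 123 and 307 CPM in CALR knockdown replicates 1 to 3 and at 97.2, 139 and 132 CPM in control replicates 1 to 3. Knockdown replicate 1 lay below all controls, replicate 2 among them and replicate 3 above them, so the groups overlapped widely. The log2 fold change was 0.39 ± 0.52 (edgeR, unadjusted p = 0.475, adjusted p = 0.730), and it fell to -0.48 without knockdown replicate 3. HIST1H1E, another H1 subtype, was far lower: 2.71, 0.646 and 0.805 CPM against 1.11, 0.659 and 0.275. Here the highest library was knockdown replicate 1, the lowest for HIST1H1C, and the log2 fold change was 1.03 ± 0.66 (edgeR, adjusted p = 0.463). HIST1H1A had 2, 0 and 0 reads in knockdown and 0, 0 and 3 in control, and HIST1H1T, the testis form, had 5 reads in all; neither could be tested.

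Among core histone H2A genes the reads lay almost wholly in HIST1H2AC (chr6:26124145-26139116, plus strand). It had 19.2, 71.1 and 107 CPM in knockdown and 63.1, 79.3 and 76.4 CPM in control. Knockdown replicate 1 was below all controls and replicate 3 above, and the log2 fold change was -0.15 ± 0.48 (edgeR, adjusted p = 0.899). HIST2H2AA4 (0.257, 0.695 and 2.23 CPM against 0.529, 0.961 and 1.08) placed the knockdown libraries likewise, with replicate 1 below all controls and replicate 3 above, and its difference of 0.31 ± 0.67 in log2 turned to -0.82 without knockdown replicate 3. This gene shares 97.1% of its 50-base words with other genes, so how its reads were divided from those of its copies is uncertain.
HIST1H2AM had higher values in all 3 knockdown libraries: 0.686, 0.522 and 0.537 CPM against 0.291, 0.439 and 0.321, from 11 to 24 reads a library. The groups did not overlap, with a log2 fold change of 0.73 ± 0.37 (edgeR, unadjusted p = 0.0849, adjusted p = 0.379). Its exons lie for 88.0% under another gene on the same strand and 86.3% of its 50-base words recur elsewhere, so these reads cannot be assigned to it with certainty. HIST1H2AG and HIST2H2AC, the other two tested H2A genes, had log2 fold changes of 0.36 ± 0.36 and 0.82 ± 0.51, and neither reached an unadjusted p of 0.05. HIST1H2AG was at 1.49, 3.60 and 3.46 CPM against 1.96, 2.47 and 2.25, with replicate 1 again the low knockdown library. HIST2H2AC was at 0.886, 0.447 and 0.322 CPM against 0.450, 0.275 and 0.206, with replicate 1 the high one. Among the 11 untested H2A genes HIST3H2A had the most reads, 0, 0 and 3 in knockdown and 29, 2 and 9 in control, 29 of its 43 reads being in 1 library. With no low-count filter edgeR fitted HIST3H2A at -3.51, with an adjusted p of 0.00286.

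H2B was the type with the most tested genes and the most reads, 43226 over its 16 members and the 6 libraries, against 17338 for H2A. HIST1H2BK (chr6:27146418-27146798, minus strand) was at 74.7, 105 and 158 CPM in knockdown and 59.1, 108 and 73.8 CPM in control. Replicate 3 of the knockdown was above all controls, the other two fell within their range, and the log2 fold change was 0.49 ± 0.31 (edgeR, adjusted p = 0.453). HIST1H2BK shares 74.1% of its 50-base words with other genes. HIST1H2BD was at 21.3, 49.5 and 64.1 CPM against 35.1, 52.4 and 50.4, and its fitted groups lay level at a log2 fold change of -0.03 ± 0.36. HIST1H2BJ was at 6.17, 11.9 and 18.1 CPM against 6.30, 7.0 and 7.50. Here 2 knockdown libraries stood clear above 3 close controls and replicate 1 just below them (log2 fold change 0.80 ± 0.35, edgeR unadjusted p = 0.0512, adjusted p = 0.325).
HIST1H2BB (chr6:26043277-26043657, minus strand) was the 1 member with both non-overlapping groups and an unadjusted p under 0.05. It was at 0.971, 1.14 and 1.37 CPM (34, 46 and 51 reads) in knockdown and at 0.714, 0.604 and 0.596 CPM (27, 22 and 26 reads) in control. All 3 knockdown libraries were above all controls, on means of 1.16 ± 0.199 and 0.638 ± 0.0661 CPM (SD, n = 3 each). The log2 fold change was 0.86 ± 0.33 (edgeR, unadjusted p = 0.0268, adjusted p = 0.272), and between 0.74 and 0.98 when any 1 library was left out. No 50-base word of its 381-base GENCODE transcript occurs in another gene. The length behind its FPKM was 562 bases, so part of the model on which its reads were counted may not have been searched. The unadjusted p was not under 0.05 in each fit: it was 0.0505 with library size alone, 0.0686 with the replicate block, 0.0938 with the block and the GC trend removed, 0.0574 without knockdown replicate 3, 0.0971 without control replicate 2 and 0.103 without control replicate 3. The other 5 tested H2B genes ranged from -0.37 ± 0.34 for HIST1H2BN to 0.68 ± 0.37 for HIST1H2BO in log2 fold change, with no unadjusted p under 0.05. HIST2H2BE was at 7.23, 10.5 and 27.6 CPM in knockdown and 13.5, 10.4 and 14.4 CPM in control, a pattern set by knockdown replicate 3: the log2 fold change was 0.24 ± 0.44, and -0.51 without that library. HIST2H2BF was at 6.11, 7.10 and 10.8 CPM against 9.23, 6.78 and 6.90, and its fitted difference of 0.07 ± 0.27 turned below 0 with library size as the only scaling. HIST1H2BC, the partner of HIST1H2AC, was at 1.89, 4.45 and 4.56 CPM against 2.46, 2.77 and 3.23. In HIST1H2BC knockdown replicates 2 and 3 were above all controls and replicate 1 below them. HIST1H2BN was at 4.23, 9.39 and 10.1 CPM against 7.54, 11.7 and 11.3, so no knockdown library exceeded the highest control. HIST1H2BO was at 1.29, 0.795 and 1.37 CPM against 0.926, 0.631 and 0.596, with 1 knockdown library inside the range of the controls.

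H3 had few reads, 734 over all 7 members and 6 libraries, and its 3 tested genes did not move alike. HIST1H3H (chr6:27810064-27811300, plus strand) was at 0.971, 2.33 and 3.43 CPM in knockdown and 2.25, 2.33 and 2.29 in control. The controls were nearly equal, the knockdown libraries spread to both sides of them, and the log2 fold change was -0.03 ± 0.42. HIST1H3B (chr6:26031650-26032060, minus strand) had 47, 22 and 15 reads in knockdown and 16, 8 and 3 in control, or 1.34, 0.546 and 0.402 CPM against 0.423, 0.220 and 0.0688. Knockdown replicate 3 lay below control replicate 1, so the groups overlapped, and the log2 fold change was 1.69 ± 0.68 (edgeR, unadjusted p = 0.0343, adjusted p = 0.289). With no low-count filter the edgeR fit gave 1.71 and an adjusted p of 0.0425, past the threshold. Its unadjusted p was 0.171 without knockdown replicate 1, 0.0781 without control replicate 2 and 0.101 without control replicate 3. HIST1H3C repeated that order at lower counts, 28, 16 and 10 reads against 14, 5 and 1, with 1.47 ± 0.76 (edgeR, unadjusted p = 0.0868, adjusted p = 0.382). The control values of HIST1H3B and HIST1H3C were not alike: replicate 3 had 3 reads and 1 read, at or below the 3 reads that a count of 0 allows.

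The H4 genes carried 2161 reads over 11 members. HIST1H4H (chr6:26277609-26285638, minus strand) was at 1.57, 3.33 and 4.96 CPM in knockdown and 2.01, 2.94 and 3.32 in control, with knockdown replicate 1 below all controls, replicate 2 level with the highest of them and replicate 3 above. Its log2 fold change was 0.25 ± 0.42, and -0.15 without knockdown replicate 3. HIST2H4B was at 1.63, 4.47 and 9.28 CPM against 3.78, 5.0 and 4.52, with 0.21 ± 0.51, or -0.52 without that library; it shares 97.2% of its 50-base words with other genes. HIST1H4C (chr6:26103876-26104310, plus strand) went the other way in replicate 1: 1.57, 0.497 and 0.778 CPM against 0.555, 0.467 and 0.206. Its groups overlapped, and the log2 fold change was 1.21 ± 0.54 (edgeR, unadjusted p = 0.0525, adjusted p = 0.327). HIST1H4J, the other tested H4 gene, had 0.58 ± 0.72, with 22, 7 and 2 reads in the controls. It shares 81.2% of its 50-base words with another gene, so these reads cannot be assigned to it with certainty.

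**Figure D3:**
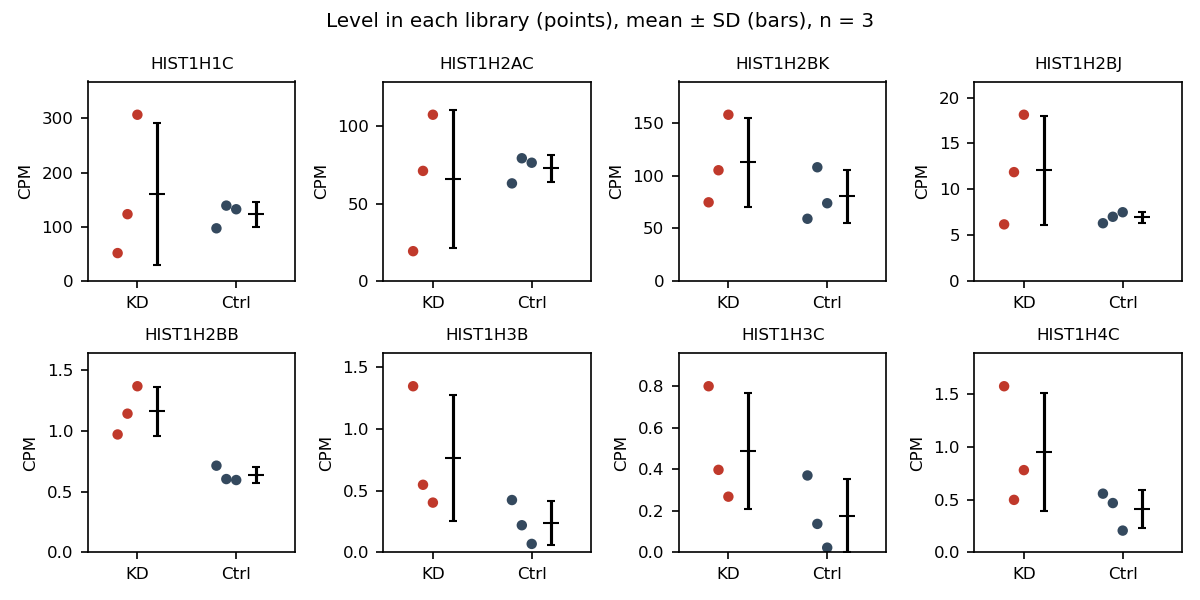
CPM in each library (points, CALR knockdown KD in red, control Ctrl in dark), with mean ± SD (bars, n = 3), for 8 members from the 5 types. The knockdown libraries of HIST1H1C span 51.4 to 307 CPM and enclose the controls, whereas those of HIST1H2BB lie above all controls.

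Summed over all 54 members, the histone level was 211, 413 and 739 CPM in CALR knockdown replicates 1 to 3 and 312, 436 and 393 CPM in the controls. The knockdown libraries thus held the lowest and the highest sums, and the groups overlapped. Knockdown replicate 1 was also lowest and replicate 3 highest of the 6 libraries in the sums of H1 (54.2, 124 and 308 CPM against 98.3, 140 and 133), H2A (23.7, 76.9 and 115 against 67.7, 84.0 and 80.7), H2B (124, 200 and 296 against 135, 201 and 169) and H4 (5.88, 9.04 and 16.3 against 7.51, 9.11 and 8.39). The H3 sums were 3.26, 3.35 and 4.24 CPM against 3.17, 2.77 and 2.43, the 1 type whose summed groups did not overlap in CPM. That separation depended on the scaling of the libraries. As a share of unscaled library totals, H3 took 0.000306% in knockdown replicate 1 and 0.000324% in control replicate 1, so the groups overlapped. Among single genes, 11.3% of all tested did not overlap with knockdown higher.

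The knockdown libraries also differed from each other when members were counted one by one. Knockdown replicate 3 was above all 3 controls for 17 of 23 members (73.9%, against 39.3% of all genes tested) and below them for 0 (against 39.8%). Knockdown replicate 2 was above for 9 (39.1%, against 33%) and below for 0 (against 34.9%). Knockdown replicate 1 was below all controls for 13 (56.5%, against 40%) and above for 8 (34.8%, against 37.2%). The median member lay at -0.30, 0.30 and 0.86 log2 CPM from its control mean in the 3 knockdown libraries, where the median of all genes tested was between -0.02 and 0.01 in each of the 6. Knockdown replicate 1 was also the knockdown library with the most CALR left, at 493 CPM, and the part of that level in the result was not tested.

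Knockdown replicate 1 thus held members both well above and well below the controls, and annotated length and abundance differed between them. A gene was called long where a GENCODE 29 transcript or its RefSeq span exceeds 800 bases, a limit chosen after the values were seen, so the split is a description and no test was made. HIST1H2BC, HIST1H2BD and HIST1H2BK are long by RefSeq span alone, at 10757, 13229 and 8566 bases of genomic DNA. Their longest GENCODE transcripts have 659, 789 and 381 bases. HIST1H4H is long by a GENCODE transcript of 2163 bases, but its RefSeq span is 409 bases and the length behind its FPKM was 397. The 12 long tested genes (HIST1H2AC, HIST1H2AG, HIST1H2BC, HIST1H2BD, HIST1H2BJ, HIST1H2BK, HIST1H2BN, HIST2H2BE, HIST2H2BF, HIST1H3H, HIST1H4H and HIST2H4B) had medians of -0.78, 0.08 and 0.66 log2 CPM from the control mean in knockdown replicates 1 to 3. Knockdown replicate 1 was below the control mean for 12 of 12 of them and below all controls for 11, and replicate 3 was above the mean for 12 of 12 and above all controls for 11. The 11 short genes (HIST1H1C, HIST1H1E, HIST2H2AA4, HIST1H2AM, HIST2H2AC, HIST1H2BB, HIST1H2BO, HIST1H3B, HIST1H3C, HIST1H4C and HIST1H4J) had medians of 1.12, 0.39 and 0.91. The split by length is nearly a split by level. The long genes had mean levels from 2.27 CPM (HIST1H3H) to 96.5 CPM (HIST1H2BK). The short genes other than HIST1H1C lay between 0.333 CPM (HIST1H3C) and 1.03 CPM (HIST1H1E), with few reads a library. HIST1H1C, short but at 142 CPM, stood at -1.24 log2 CPM from its control mean in knockdown replicate 1, on the same side as the long genes. Length and level cannot be told apart in these genes. In knockdown replicate 1, 9 of the short genes were above the control mean, and HIST1H1C and HIST2H2AA4 were below it. HIST2H2AA4, both short and low at a mean of 0.958 CPM, stood at -1.50 log2 CPM from its control mean in that library. The controls differed as well: the short genes' medians were 0.49, 0.12 and -0.43 in control replicates 1 to 3, and the long genes' were -0.19, 0.12 and 0.10.

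**Figure D4:**
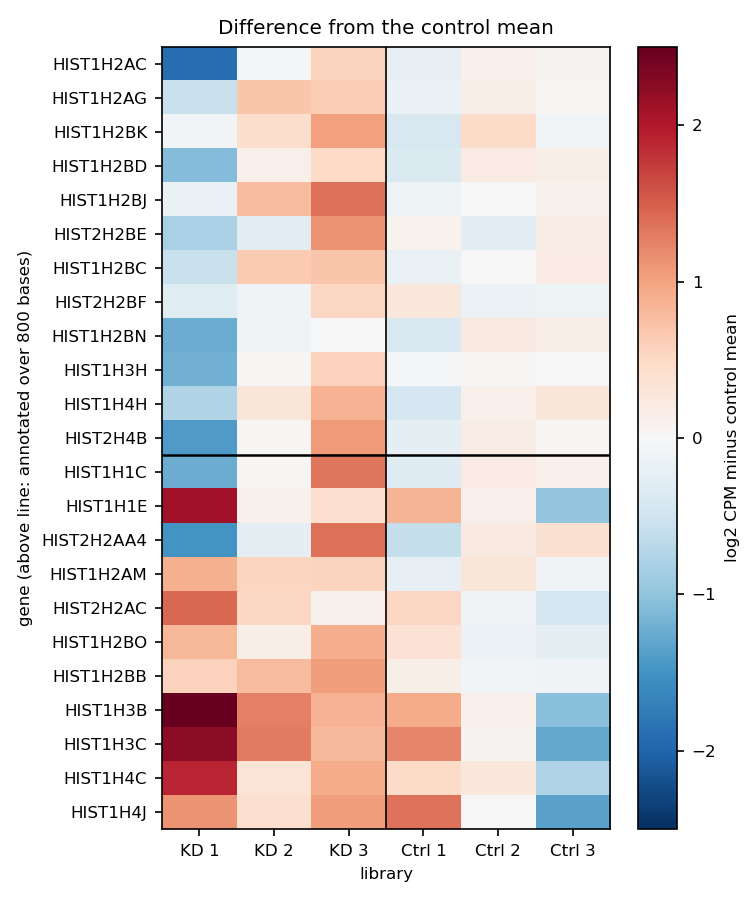
Difference of log2 CPM from the control mean (colour; red above, blue below) for each tested member in each library, with CALR knockdown (KD) left and control (Ctrl) right of the vertical line. The 12 genes above the horizontal line are annotated over 800 bases and lie below the control mean in KD 1 and above it in KD 3. HIST1H2BK in KD 1 (-0.06) and HIST1H2BN in KD 3 (0.01) are close to the control mean and nearly without colour. Most of the 11 genes below the line are red in KD 1.

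Other RNAs that are made without a poly(A) tail varied between the libraries too. Of 30 such RNAs listed, 28 were in the table and 16 were tested; 15 of the 16 were positive, the median log2 fold change was 1.03, and 1 (TERC, the telomerase RNA) was higher at an unadjusted p under 0.05 in edgeR, against 8.17% of all genes. They summed to 337, 160 and 237 CPM in the knockdown libraries and to 170, 143 and 30.6 CPM in the controls, so that control replicate 3 stood far below the other 5 libraries. RN7SK, a nuclear regulator of transcription elongation, was at 75.6, 36.5 and 82.3 CPM against 42.6, 42.1 and 9.47. The tested RNAs had medians of 1.36, 0.70 and 1.14 log2 CPM from the control mean in knockdown and 0.78, 0.66 and -1.43 in control. In control replicate 3, where these RNAs were lowest, the short histone genes had their lowest control median as well. HIST1H3B and HIST1H3C had their fewest reads in that library. HIST1H1C, HIST2H2AA4 and HIST1H2AM were instead lowest among the controls in replicate 1. The summed level of the short genes was also lowest in control replicate 1, at 103 CPM against 144 and 136 in control replicates 2 and 3. The part of the RNAs made without a poly(A) tail in the histone result was not tested.

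**Figure D5:**
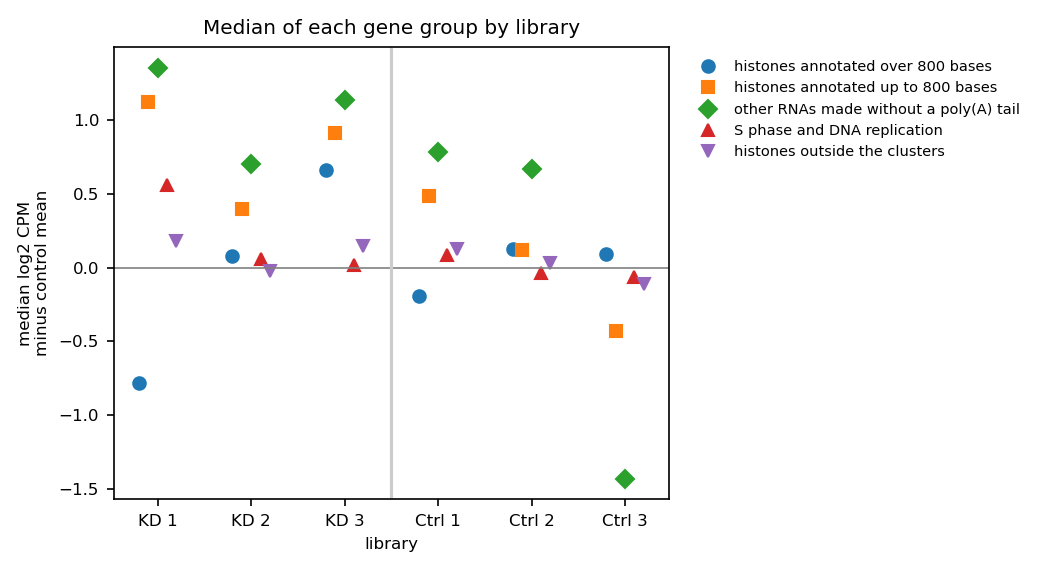
Median over genes of log2 CPM minus the control mean in each library (KD, CALR knockdown; Ctrl, control) for long and short histone genes and 3 other lists. Long histone genes go from -0.78 in KD 1 to 0.66 in KD 3, and the RNAs made without a poly(A) tail fall to -1.43 in Ctrl 3.

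Genes of S phase, when histone mRNA is made, did not follow the histone sums. Of 40 S phase and DNA replication genes, all tested, 31 were positive and the median log2 fold change was 0.24. In edgeR 4 of them (RFC5, MCM5, RFC2 and LIG1) were higher with an unadjusted p below 0.05 and 0 were lower; 4 of 40 is near the 8.17% of all genes that were higher, and 7.36% of all genes were lower. Their medians were 0.56, 0.06 and 0.01 log2 CPM from the control mean in knockdown replicates 1 to 3, highest in replicate 1, the library where the long histone genes were lowest and the short ones highest by their medians. Of 24 mitotic genes 18 were positive, with a median log2 fold change of 0.44, and 8 were higher with a p below 0.05 before adjustment (8.17% of all genes), among them PLK1 at 0.92 ± 0.33 and CDC20 at 0.65 ± 0.21. The mitotic medians were 0.82, 0.42 and -0.09 log2 CPM from the control mean in the knockdown libraries, again highest in replicate 1. The part of these lists in the histone result was not tested.

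Histone genes outside the clusters mostly have poly(A) signals like other genes and are expressed through the cell cycle. Of 12 listed, 11 were in the table and 10 were tested; 7 were positive, with a median log2 fold change of 0.09. H2AFX, whose protein is phosphorylated at DNA breaks and whose gene is known to give both kinds of mRNA end, was at 231, 133 and 203 CPM against 125, 96.5 and 88.5. All 3 knockdown libraries were above all controls, with 0.87 ± 0.23 (edgeR, unadjusted p = 0.00478, adjusted p = 0.200). H2AFZ, which encodes the variant H2A.Z, was at 636, 594 and 591 CPM against 562, 578 and 529, with 0.13 ± 0.14 (edgeR, unadjusted p = 0.405). The H3.3 genes H3F3A and H3F3B had log2 fold changes of -0.02 ± 0.15 and 0.03 ± 0.18.

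The genes that make and end histone mRNAs had a median log2 fold change of 0.02. Of 37 measured, 19 were positive, and edgeR gave an unadjusted p below 0.05 for 3 higher genes and 1 lower gene, where 8.17% of all genes were higher and 7.36% lower. Neither share stands above the background, and the 4 genes are named below as members of the list. SLBP, which binds the stem-loop, was at 116, 95.8 and 96.0 CPM against 101, 117 and 112, with knockdown replicates 2 and 3 just below all controls and a log2 fold change of -0.10 ± 0.16. NPAT, the S phase activator of histone transcription, was at 11.6, 19.9 and 7.38 CPM against 22.1, 14.1 and 23.4, with -0.61 ± 0.36 (edgeR, unadjusted p = 0.124). The 4 genes below that p were the cleavage factors CPSF4 (0.43 ± 0.17) and SYMPK (0.39 ± 0.16), SRRT (0.35 ± 0.14), which acts with the cap-binding complex, and that complex's small subunit NCBP2 (-0.44 ± 0.16).

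Of 24 measured genes for translation and decay of histone mRNA, 3 were lower and 0 higher below the same p, against 7.36% and 8.17% of all genes, and the median log2 fold change was -0.14. The 3 were the uridyl transferase ZCCHC6 (-0.68 ± 0.21), the exosome nuclease DIS3 (-0.74 ± 0.28) and LSM1 (-0.37 ± 0.16), a subunit of the ring that binds the 3′ ends of decaying mRNAs; LSM6 of the same ring had 0.43 ± 0.20 with non-overlapping groups. Among 20 genes for adding, binding or shortening poly(A) tails the median was -0.02, and 1, the deadenylase CNOT6L, was lower (-0.74 ± 0.20), against 7.36% of all genes, while PABPC1, the cytoplasmic poly(A)-binding protein, had 0.21 ± 0.15 with non-overlapping groups. Of 30 measured histone chaperones 22 were positive, with a median of 0.15, and 5 were higher and 0 lower at that p, against 8.17% and 7.36% of all genes. The groups did not overlap for 5 of the 30, all higher in knockdown, against 11.3% of all genes. IPO4, which imports histones H3 and H4 into the nucleus, was at 81.9, 86.5 and 88.4 CPM against 42.9, 42.9 and 41.9, with a log2 fold change of 1.01 ± 0.15 (edgeR, unadjusted p = 7.45e-05, adjusted p = 0.145). The other chaperone genes with non-overlapping groups and the smallest p were TONSL (0.72 ± 0.20) and IPO9 (0.41 ± 0.15), both with an unadjusted p below 0.05, and SSRP1 (0.29 ± 0.15), which was not. None of the genes in these lists passed an adjusted p of 0.05 in edgeR.

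Several H2A and H2B genes lie head to head and share the DNA between their starts. Distances here run between GENCODE gene models, not between the RefSeq starts used for the promoters, which can lie further upstream. The models of HIST1H2BC and HIST1H2AC lie 218 bases apart. Their fitted log2 fold changes were 0.36 and -0.15 at mean levels of 3.23 and 69.4 CPM. The models of HIST1H2BJ and HIST1H2AG lie 291 bases apart, with 0.80 and 0.36 at 9.49 and 2.54 CPM. Those of HIST1H2BK and HIST1H2AH hold the coding sequence alone, so their 330 bases separate coding sequences. HIST1H2BK had 22126 reads in all and HIST1H2AH had 21. Reads in polyadenylated RNA were therefore unequal between the partners of the pairs described here, most of all between HIST1H2BK and HIST1H2AH. Among other pairs, HIST2H2BE and HIST2H2AC had 3222 and 97 reads, whereas HIST1H2AM and HIST1H2BO were closer, with 106 and 212.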

How the data were processed

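Polyadenylated RNA of 3 CALR knockdown and 3 control libraries of MDA-MB-231 cells was analysed from the deposited tables. The deposited counts are whole reads per gene and the deposited FPKM values are the authors' normalisation of them by length and depth. TopHat2, FastQC 0.9.5 and the build GRCh38 are named in, and taken here per, the submitters' processing notes. Which program counted reads, with which strand setting and annotation, is not given in the sources used here.

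Genes were kept with edgeR's filterByExpr (16394) and compared with edgeR's quasi-likelihood F-test (version 4.0.16, R 4.3.3), with TMM factors, no covariate and Benjamini-Hochberg adjustment over all genes tested. The standard error (SE) of a log2 fold change is its size over the root of F. CPM uses TMM-scaled totals, and log2 CPM a prior count of 2. Library totals were 34639090 to 42425310 reads. The fit was tested on simulated data, where it recovered 51.5% of 2-fold and 98.9% of 4-fold changes, with 8 false calls among 16394 genes. The simulated dispersion was the same for all genes and was not taken from these libraries, so these shares may not hold for them. Libraries of the same group differed beyond counting noise (chi-square per gene 105 to 199 in knockdown, 11.8 to 48.1 in control), so none were merged.

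Members and lists were chosen with earlier results of these data known, and lists are described by counts and medians with no test. Described in full were the 3 members of each type with the highest mean FPKM, members with non-overlapping groups and an unadjusted p under 0.05, and, from the lists on histone supply, up to 4 genes with non-overlapping groups and the smallest p, besides fixed genes. HIST1H2AM fell under the first of these, and other members are named by range or as exceptions after their values were seen. Sequences and gene models came from GENCODE 29 (GRCh38) and promoters from RefSeq (GRCh38.p14). Alternatives were DESeq2's size factors, library size alone, DESeq2 1.42.0, limma-voom (limma 3.58.1), testing all rows, a block for the replicate number, requiring 1 CPM in each library, log2 FPKM in limma with 1 or 0.1 added, removal of each library's GC trend without and with the block, and leaving out each library.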

Additional observations from a re-analysis of the deposited data

How the results depend on the processing

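The median log2 fold change of the tested members was positive under each alternative, from 0.10 to 0.60, and 0.18 to 0.60 when 1 library was left out. Numbers of members higher at an unadjusted p under 0.05 were 1 with library size alone, 8 with no low-count filter, 0 with 1 CPM required in each library, 1 with log2(FPKM + 1) and 1 with log2(FPKM + 0.1), and 0 to 5 when 1 library was left out: 5 without knockdown replicate 1 or 2, 1 without knockdown replicate 3 or control replicate 2, 4 without control replicate 1 and 0 without control replicate 3. No filter tested 54 members, of which 2 passed the adjusted threshold (HIST3H2A at -3.51, adjusted p = 0.00286, with 0, 0 and 3 reads against 29, 2 and 9; HIST1H3B at 1.71, adjusted p = 0.0425) and 1 was lower; the CPM limit tested 12. With no filter 988 genes of the whole table passed, with DESeq2 530, without knockdown replicate 2 2604 and without knockdown replicate 3 138, against 0 in the main analysis. The share of all genes at an unadjusted p under 0.05 is not given for these fits. The numbers of members at that p therefore cannot be set against it. Library size alone moved the median of all genes to -0.13, and 18 of 23 members were then positive. On log2(FPKM + 0.1) that median was -0.11 and 12 of 21 members were positive.

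Signs turned for genes with small differences. HIST2H2BF became -0.078 with library size alone, -0.061 with log2(FPKM + 1) and -0.084 with log2(FPKM + 0.1). HIST2H2AA4 became -0.13 with limma-voom, -0.062 with the replicate block, -0.050 and -0.23 with the FPKM scales in that order, and -0.19 with the GC trend removed and the block. HIST2H4B became -0.099, -0.087, -0.12, -0.22 and -0.11 under the same settings. HIST1H1C became -0.082 and -0.084 on the FPKM scales and -0.10 with GC and block, and HIST2H2BE -0.065, -0.10 and -0.0034. HIST1H2AC became 0.024 with the GC trend removed. When 1 library was left out, ranges that crossed 0 were -0.19 to 0.23 for HIST2H2BF, -0.82 to 0.77 for HIST2H2AA4, -0.52 to 0.64 for HIST2H4B, -0.48 to 0.81 for HIST1H1C, -0.51 to 0.58 for HIST2H2BE, -0.68 to 0.30 for HIST1H2AC, -0.36 to 0.31 for HIST1H2BD, -0.45 to 0.33 for HIST1H3H and -0.15 to 0.59 for HIST1H4H. The H3 median was -0.16 and -0.30 on the FPKM scales, which left out the low H3 genes, and 0.93 to 2.42 when 1 library was left out. The cause was not tested elsewhere.

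Same-numbered libraries correlated at 0.195, -0.119 and -0.217 in their deviations from the group mean. These deviations tie the 3 libraries of a group to each other, so the correlations cannot decide whether same-numbered libraries were prepared together. The labels do not say so. With the replicate block 3 members were higher (HIST1H3B, HIST1H3C and HIST1H4C, not HIST1H2BB) and 0 passed the adjusted threshold, with a median of 0.28. Added after the values were seen, leaving out each control gave 17 to 22 members above the controls in knockdown replicate 3 and 13 below in replicate 1.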
